A study of Arabidopsis thaliana with 6 samples.

Results

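SAUR (small auxin up RNA) genes are described here in root tips of WT Arabidopsis after Al treatment. Members were taken by locus identifier from a list of 60 SAUR loci. Of the 60 loci, 48 have a row in the deposited expression table of 24379 genes, and 12 do not and are not analysed here. The seedlings were 7-day-old wild type plants of the Col-0 accession grown in a hydroponic nutrient solution, and 3 samples were treated with 25 µM AlCl3 for 3 h while 3 control samples received no Al. The labels name the tissue only as roots, and the restriction to about 0.5 cm from the root tip comes from the paper of the study. That paper looked for new genes of Al resistance, above all in the root transition zone. Each sample is a bulk RNA library of many cells, so fewer cells of a type and less RNA per cell cannot be told apart in any value below. The labels do not say whether the samples of a group came from separate cultures, so p-values measure only the spread between these samples.

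SAUR genes encode small plant proteins, and many of them are transcribed within minutes of an auxin signal. The best studied members, SAUR19 and its neighbours, bind and inhibit clade D protein phosphatases 2C, which keeps the plasma membrane proton ATPases phosphorylated and active, so that the wall is acidified and the cell expands. In Arabidopsis many SAUR genes stand in tandem clusters of close copies, while others stand alone and include members that respond to abscisic acid, senescence or light rather than to auxin.

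Among the 60 loci, 31 stood in 6 tandem clusters and 29 were dispersed. The clusters were on chromosome 1 (8 loci, SAUR61 to SAUR68, chr1:10301377-10323239), chromosome 2 (3 loci, chr2:9083906-9090052), chromosome 3 (4 loci, SAUR26 to SAUR29, chr3:976715-983768) and chromosome 5 (6 loci, SAUR19 to SAUR24, chr5:5962773-5984308) of the TAIR10.1 assembly. Chromosome 4 held a pair of clusters, one with SAUR1 to SAUR5 and SAUR50 (6 loci, chr4:16582183-16599568) and one with SAUR13 to SAUR16 (4 loci, chr4:18121526-18131284). The longest annotated transcript had a single exon in 54 of the 60 loci, and the encoded proteins ran from 86 to 190 amino acids with a median of 118.

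The upstream windows of 4 members are shown because the clustered and the dispersed genes differed in them. Each is the 250 bases before the annotated transcript start in TAIR10.1, read 5′ to 3′ on the strand of the gene. SAUR32 (chr2:19180455-19180704, plus strand) and SAUR55 (chr5:20644275-20644524, plus strand) were the members with the highest FPKM, and SAUR15 (chr4:18125807-18126056, plus strand) and SAUR62 (chr1:10303419-10303668, minus strand) stand in clusters. Capitals mark every match, on either strand, to 6 motifs: the auxin response elements TGTCTC and TGTCGG, the G-box CACGTG, the bHLH site CACATG, the TCP-type site GGNCCC and the CGCG box ACGCGT.
SAUR32: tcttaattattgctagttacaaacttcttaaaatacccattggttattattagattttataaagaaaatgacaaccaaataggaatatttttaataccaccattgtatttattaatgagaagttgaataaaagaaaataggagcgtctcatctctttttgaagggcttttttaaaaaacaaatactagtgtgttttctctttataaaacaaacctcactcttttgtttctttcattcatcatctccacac
SAUR55: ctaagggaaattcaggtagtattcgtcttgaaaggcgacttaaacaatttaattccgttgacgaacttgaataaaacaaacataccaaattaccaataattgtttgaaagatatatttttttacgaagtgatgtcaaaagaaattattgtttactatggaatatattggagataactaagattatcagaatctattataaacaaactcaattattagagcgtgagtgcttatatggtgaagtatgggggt
SAUR15: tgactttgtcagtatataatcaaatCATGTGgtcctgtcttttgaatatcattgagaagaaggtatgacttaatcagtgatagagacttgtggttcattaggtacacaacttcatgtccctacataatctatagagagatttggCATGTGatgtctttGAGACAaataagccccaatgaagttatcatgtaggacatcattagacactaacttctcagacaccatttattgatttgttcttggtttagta
SAUR62: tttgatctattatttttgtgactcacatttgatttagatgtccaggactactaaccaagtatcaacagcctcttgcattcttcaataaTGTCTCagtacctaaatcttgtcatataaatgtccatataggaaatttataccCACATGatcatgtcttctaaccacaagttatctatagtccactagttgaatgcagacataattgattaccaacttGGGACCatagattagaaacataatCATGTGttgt

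SAUR32 and SAUR55 held none of the 6 motifs in this window. SAUR15, known as SAUR-AC1 and isolated for its fast rise under auxin, held TGTCTC 1 time (as GAGACA on the printed strand) and CACATG 2 times (as CATGTG). SAUR62 held the same motifs and also GGNCCC. Matches describe letters only and are not evidence of binding.

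CACATG was in 27 of the 60 members (45%), beside 11.1% of the 27443 windows of all protein-coding genes. It was in 23 of the 31 clustered members (74.2%), among them all 8 on chromosome 1 and all 4 on chromosome 3, and in 4 of the 29 dispersed members (13.8%). TGTCTC was in 7 of 60 members (11.7%), close to its share of all windows (10.9%), and GGNCCC was in 11 (18.3%) beside 7.35%. All 7 members with TGTCTC stood in clusters (22.6% of the 31), so the printed windows of SAUR15 and SAUR62 are not typical of the clusters in holding it. TGTCGG was in 2 members (3.33%, beside 4.16% of all windows), CACGTG in 1 (1.67%, beside 6.49%) and ACGCGT in 1 (1.67%, beside 1.67%). Genes of a tandem cluster are related copies, so their windows cannot be counted as independent of each other. How alike the windows are was not measured.

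**Figure D1:**
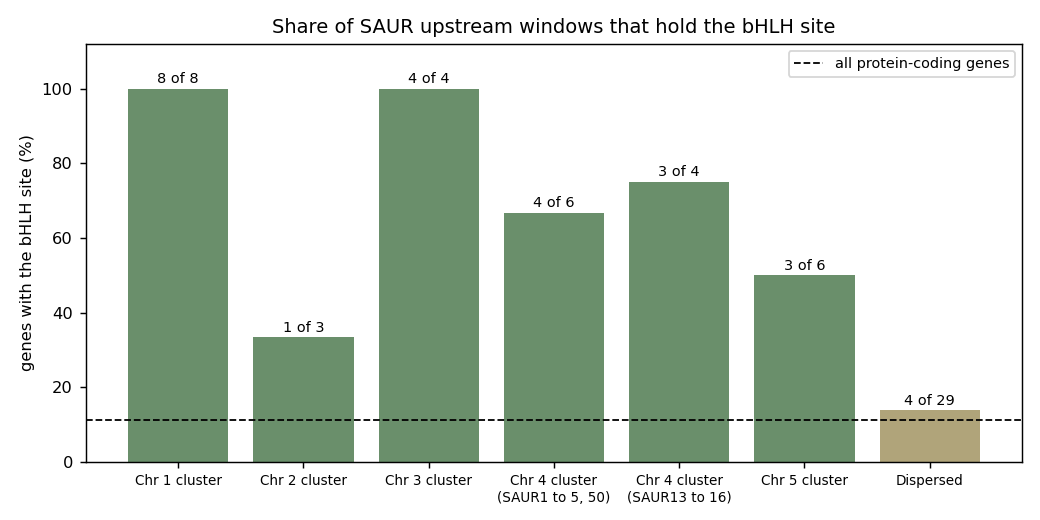
Share of SAUR upstream windows of 250 bases that hold the bHLH site, in percent, for each tandem cluster and for the dispersed genes, with the count above each bar and the share over all protein-coding genes as a dashed line (11.1%). The 6 cluster bars lie between 33.3% and 100%, and the dispersed bar at 13.8% lies near the dashed line.

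Expression was given as FPKM, that is fragments scaled by transcript length and by the mapped fragments of the sample, which allows levels of different genes to be set side by side. The steps between low FPKM values put the depth at about 21700000 to 21850000 fragments per sample. Markers of root cells were present in all 6 samples, and the summed FPKM of 6 green tissue markers was between 5.86 and 9.55 in the controls and between 6.4 and 13.3 after Al treatment.

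Most members were near or below detection in root tips. Of the 48 with a row, 4 (SAUR27, SAUR56, SAUR63 and SAUR65) were at 0 in all samples, and 28, these included, were below an FPKM of 1 in every sample. The test, limma on log2(FPKM + 1), took the 20 members that reached an FPKM of 1 in 3 or more samples. Only 4 of these 20 came from the 6 clusters (SAUR4, SAUR5, SAUR50 and SAUR6), and 16 were dispersed. CACATG was in 5 of the 20 tested members (25%) and in 22 of the 40 others (55%), and TGTCTC was in none of the 20. The CACATG counts restate the cluster difference, since most tested members were dispersed and most others were clustered. Within either kind, tested and other members held CACATG at similar shares. Of the 29 dispersed members, 4 held CACATG and 0 held TGTCTC. Of those 4, SAUR9 and SAUR51 were tested and SAUR8 and SAUR11 were not. Among the tested cluster members SAUR4, SAUR5 and SAUR6 held CACATG and SAUR50 did not.

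At an adjusted p under 0.05 (limma, Benjamini-Hochberg over 18463 genes), 3 of the 20 tested members rose after Al treatment and 9 fell. These shares, 15% and 45%, stand beside 21.3% of all genes called higher and 38.5% called lower (59.8% in either direction). Of the called members 2 rose and 2 fell by 1 or more on the log2 scale, beside 6.45% and 2.88% of all genes. The median log2 fold change was -0.27 over the 20 members and -0.13 over all genes tested. The groups did not overlap for 3 members that were higher and 8 that were lower, beside 23.3% and 42.9% of all genes (66.3% in either direction). SAUR38 passed the filter only through the controls and SAUR9 only through the Al samples, so both had to differ. Scaling by median ratios, which sets the median of all genes to 0, gave 3 higher and 6 lower members, and split all genes into 5381 higher and 4984 lower in place of 3933 and 7106.

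**Figure D2:**
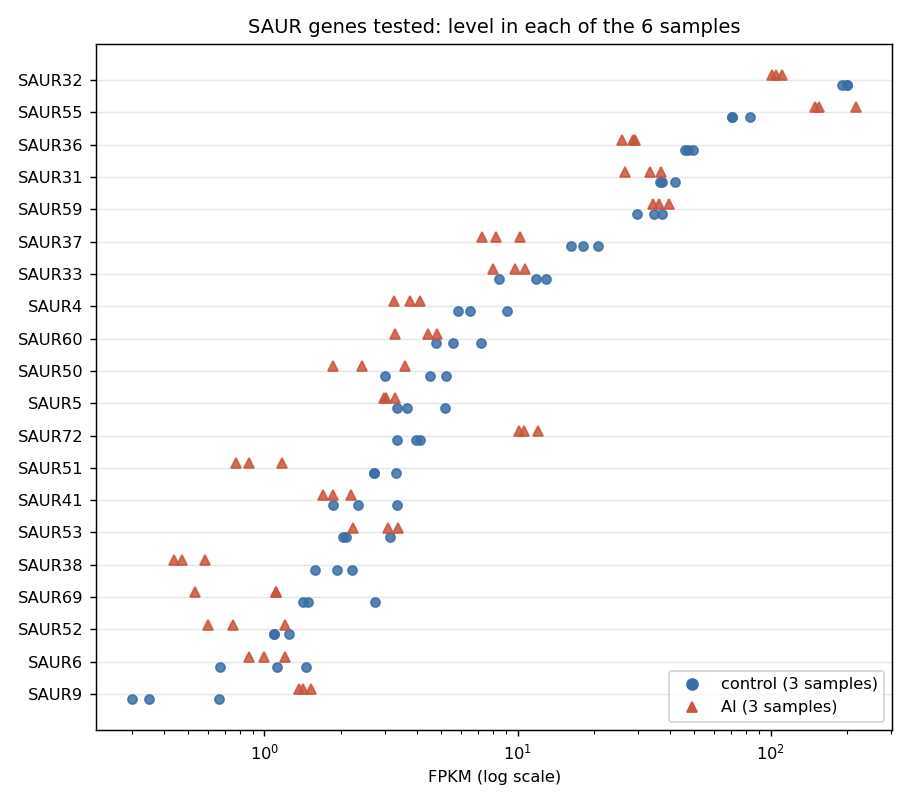
FPKM on a log axis of the 20 tested SAUR genes in each of the 3 control samples (blue circles) and 3 Al samples (red triangles), ordered by the control mean. SAUR32 leads in the controls near 198 FPKM, and SAUR55 leads after Al treatment near 175 FPKM, with the groups of both genes apart.

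SAUR32 fell and had the highest FPKM of the family in control roots. SAUR32 (AT2G46690, chr2:19180705-19181600) is known from work on the apical hook of dark-grown seedlings. Its FPKM was 201, 191 and 201 in the controls and 106, 111 and 102 after Al treatment. Every Al sample was below every control sample, and the level went from 198 ± 5.82 to 106 ± 4.83 (SD, n = 3). The log2 fold change was -0.89 (SE 0.062, limma adjusted p = 3.67e-06). In the controls SAUR32 ranked 469 among the 18463 genes by mean FPKM, and after Al treatment it ranked 1179.

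SAUR36, also known as SAG201 and linked to auxin-promoted leaf senescence, fell from 47.1, 46.1 and 49.2 FPKM to 25.8, 28.7 and 29.1. The groups were apart by more than the whole range of either, with a log2 fold change of -0.75 (SE 0.068, limma adjusted p = 2.07e-05). SAUR37 had 20.8, 16.2 and 18.1 FPKM in the controls and 10.2, 8.21 and 7.25 after Al treatment. The 2 groups of SAUR37 were apart, with a log2 fold change of -1.03 (SE 0.13, limma adjusted p = 0.000135).

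SAUR38 and SAUR51 fell at low levels. SAUR38 had 2.21, 1.93 and 1.58 FPKM in the controls and 0.47, 0.44 and 0.58 after Al treatment, and SAUR51 had 2.7, 3.3 and 2.71 against 0.87, 1.17 and 0.77. In both genes every Al sample was the lower, which the filter fixed for SAUR38, as it passed only through the controls. The log2 fold change was -0.95 for SAUR38 (SE 0.12, limma adjusted p = 0.000143) and -1.01 for SAUR51 (SE 0.12, limma adjusted p = 0.000108). On the scale of means SAUR38 was 3.84-fold lower and SAUR51 3.10-fold lower, and the added 1 in the logarithm makes the fitted changes of such low genes smaller. SAUR52, which lies next to SAUR51 on chromosome 1, had 1.09, 1.09 and 1.25 FPKM in the controls and 0.75, 0.6 and 1.2 after Al treatment and was not called (log2 fold change -0.22, limma adjusted p = 0.184; without Al replicate 3 it was -0.36 with adjusted p = 0.0354).

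In the chromosome 4 cluster of SAUR1 to SAUR5 and SAUR50, 3 of 6 loci were tested and 2 fell. SAUR4 had 9.1, 6.51 and 5.83 FPKM in the controls and 3.24, 3.77 and 4.12 after Al treatment. The groups of SAUR4 did not overlap, and its log2 fold change was -0.77 (SE 0.15, limma adjusted p = 0.00176). SAUR50, known for a role in the light-driven opening of cotyledons, had a log2 fold change of -0.54 (limma adjusted p = 0.0436) with overlapping groups, and its call was lost without control replicate 1 (adjusted p = 0.147), control replicate 2 (0.116), Al replicate 1 (0.142) or Al replicate 3 (0.104), with no filter (0.0799) and under median-ratio scaling (0.104) or quantile normalization (0.0761). SAUR5 had 5.17, 3.33 and 3.67 FPKM in the controls and 3.03, 3.27 and 2.96 after Al treatment, with the groups just apart. Its log2 fold change of -0.29 was not called (limma adjusted p = 0.0932), but passed without control replicate 2 (adjusted p = 0.0477), under TPM scaling (0.0487) and with a replicate block and a length (0.0123) or GC (0.00246) correction.

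SAUR69 and SAUR60 were called lower with little margin. SAUR69 had a log2 fold change of -0.57 (limma adjusted p = 0.0301), and the call was lost without control replicate 1 (adjusted p = 0.0981) or Al replicate 1 (0.0999), under median-ratio scaling (0.0627) and with a replicate block alone (0.0559) or with a GC correction (0.0923). SAUR60 had a log2 fold change of -0.41 (limma adjusted p = 0.0471) with overlapping groups, and the call was lost without control replicate 1 (adjusted p = 0.0816), control replicate 3 (0.153), Al replicate 2 (0.162) or Al replicate 3 (0.0664). It was also lost with no filter (0.0838), under median-ratio scaling (0.151) or quantile normalization (0.139), with no mean-variance trend (0.0502) and with a replicate block and GC correction (0.0562). SAUR60 also overlaps genes on the other strand, so part of its reads cannot be assigned with certainty if counting ignored strand.

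SAUR72, SAUR55 and SAUR9 rose. On the log2(FPKM + 1) scale SAUR72 and SAUR55 had the larger changes, whereas with a pseudocount of 0.1 SAUR9, a low gene, was at 1.58 and stood above both (SAUR55 was at 1.21). SAUR55 (AT5G50760, chr5:20644525-20645698) had 70.2, 70.6 and 83.1 FPKM in the controls and 150.1, 156 and 218 after Al treatment. Every Al sample was above every control sample, and Al replicate 3 was the highest. The level went from 74.6 ± 7.32 to 175 ± 37.7 (SD, n = 3), a 2.34-fold rise in means, with a log2 fold change of 1.20 (SE 0.14, limma adjusted p = 7.83e-05). SAUR55 ranked 1669 among all genes tested by mean FPKM in the controls and 614 after Al treatment.

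SAUR72 (AT3G12830, chr3:4078651-4079627) belongs to the SAUR41 subfamily, whose members promote cell expansion when overexpressed and respond to abscisic acid. Its FPKM was 3.98, 3.34 and 4.1 in the controls and 10.6, 12 and 10.1 after Al treatment. The groups lay far apart against a spread of 0.409 and 0.990 FPKM (SD, n = 3), with a log2 fold change of 1.31 (SE 0.10, limma adjusted p = 7.45e-06). Its log2 fold change was above that of 95.5% of all genes tested.

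The other members of that subfamily, SAUR40, SAUR41 and SAUR71, differed in their values. SAUR71 had 0, 0 and 0.06 FPKM in the controls and 0.94, 0.77 and 0.71 after Al treatment, or an estimated 1 fragment in all controls against 41 in all Al samples. That is a ratio of 41.0 with a counting interval of 6.95 to 1657 (95%, exact), and SAUR71 stayed below the level needed for the test. SAUR40 went the other way, from 0.22, 0.36 and 0.43 FPKM to 0, 0.14 and 0, or from 14 to 2 fragments (ratio 0.143, interval 0.0157 to 0.622). SAUR41 had 3.34, 2.34 and 1.87 FPKM in the controls and 1.7, 1.86 and 2.2 after Al treatment. The groups of SAUR41 overlapped, and its log2 fold change of -0.25 was not called (SE 0.16, limma adjusted p = 0.191). Intervals of this kind cover counting error only.

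SAUR9, which can inhibit the clade D phosphatases as SAUR19 does, had 0.35, 0.66 and 0.3 FPKM in the controls and 1.42, 1.37 and 1.53 after Al treatment. The groups were apart, on about 26 fragments in all controls and 85 in all Al samples. The log2 fold change was 0.77 (SE 0.13, limma adjusted p = 0.000688). SAUR9 passed the filter only through the Al samples, so its groups had to be apart.

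Of the 8 tested members without a call, SAUR31 and SAUR59 were abundant. SAUR31 had 42, 36.6 and 37.3 FPKM in the controls and 33.5, 37 and 26.6 after Al treatment (log2 fold change -0.26, limma adjusted p = 0.0761), and it passed without Al replicate 2 (adjusted p = 0.0271), under TPM scaling (0.0315) and quantile normalization (0.0419), and with a replicate block and a length (0.0119) or GC (0.00151) correction. SAUR59 had 34.7, 37.2 and 29.7 FPKM against 34.5, 36.3 and 39.6, with overlapping groups (log2 fold change 0.12, limma adjusted p = 0.286). SAUR33 was at -0.19 (limma adjusted p = 0.306) and was called lower only without control replicate 3 (adjusted p = 0.0340) or with the length correction. SAUR53 had a log2 fold change of 0.19 and SAUR6 of -0.03, and neither passed. SAUR31 overlaps a gene on the other strand. SAUR6 overlaps SAUR7 on the same strand, and 9.39% of its 50-base stretches also occur in SAUR7. The reads of SAUR31 and SAUR6 are therefore less certain.

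**Figure D3:**
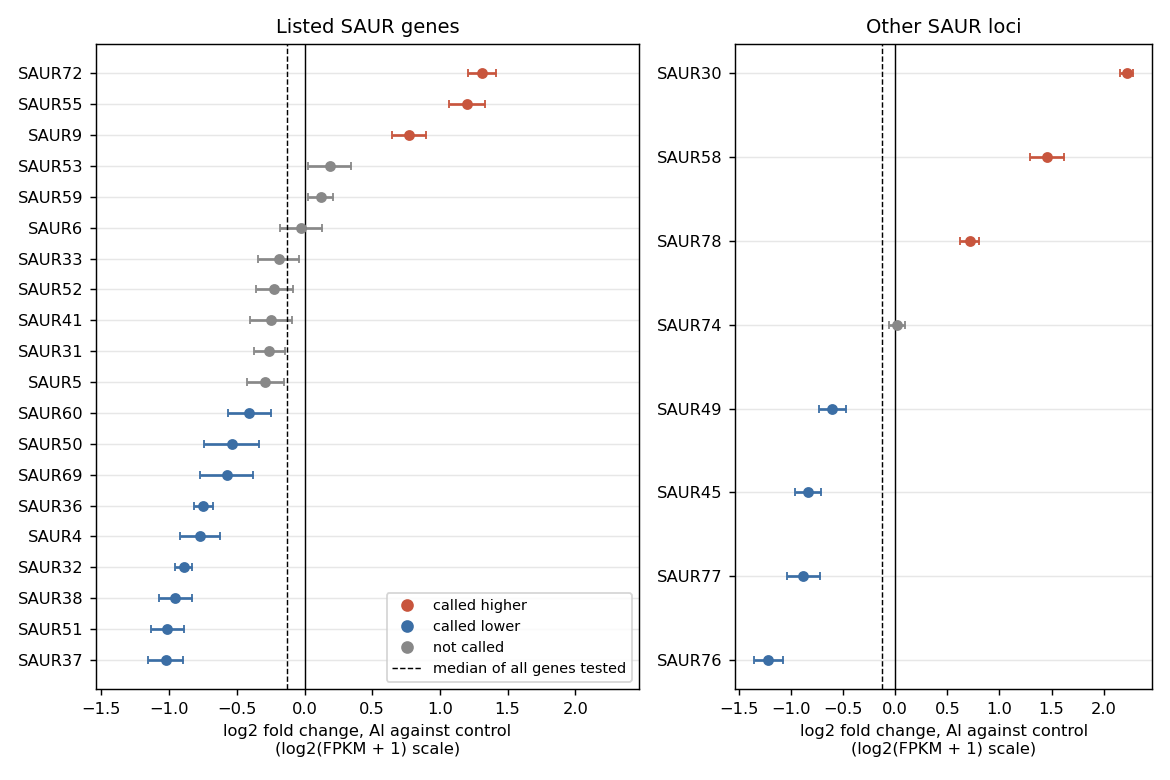
Log2 fold change of Al against control on the log2(FPKM + 1) scale, with bars of 1 SE, for the 20 tested SAUR genes of the list (left) and the 8 tested SAUR loci outside it (right), coloured by call, with the median of all genes as a dashed line (-0.13). Both panels hold genes well to either side of the dashed line, from SAUR76 at -1.22 to SAUR30 at 2.22.

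The summed FPKM of the 48 members overlapped between the groups while its makeup changed. It was 478, 449.9 and 467 in the controls and 403, 428 and 471 after Al treatment. Without SAUR55 the sum was 408, 379 and 384 in the controls and 253, 272 and 253 after Al treatment, and the groups were apart. Leaving out a gene that rose while keeping SAUR32, which fell, by itself moves the sum down after Al treatment. Without either gene the sum was 207, 188 and 183 in the controls. After Al treatment it was 148, 161 and 151, again with the groups apart. The ratio of SAUR55 to SAUR32 was 0.350, 0.370 and 0.412 in the controls and 1.42, 1.40 and 2.15 after Al treatment, so the order of the leading members turned in all samples. With 3 samples against 3, the smallest p an exact two-sided permutation test can give for such a ratio is 0.1. SAUR32, SAUR55, SAUR36, SAUR31 and SAUR59 made up 82.6% to 88.1% of the sum in each sample.

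The untested members gave few fragments. In 17 of the 28, no sample had more than 3 estimated fragments, and the highest count in any of the 28 was 28. In the SAUR19 to SAUR24 cluster 2 of 6 loci had a row, SAUR21 and SAUR24, and neither had more than 1 fragment in any sample. SAUR19, SAUR20, SAUR22, SAUR23 and SAUR15 have no row. In members with so few fragments a difference would mostly not be detectable at this depth.

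The groups were apart in 9 of the 28 members below the filter, with 5 lower after Al treatment and 4 higher. Of the 5916 genes below the filter in the whole table, the groups were apart with Al lower in 10.3% and with Al higher in 8.69% (18.9% in either direction). In the chromosome 1 cluster, SAUR66 went from 20 to 5 fragments over 3 samples (ratio 0.250, counting interval 0.0733 to 0.686) and AT1G29510 from 16 to 2 (ratio 0.125, interval 0.0139 to 0.531). SAUR64 of the same cluster had 5 fragments in the controls and 0 after Al treatment. Of the loci in this cluster, SAUR63, at 0 in every sample, is the best known, for elongation of hypocotyls and stamen filaments. The summed FPKM of this cluster was 0.69, 0.96 and 0.96 in the controls and 0.11, 0.3 and 0.23 after Al treatment, and the groups were apart. Up to 27.1% of the 50-base stretches of a locus in this cluster also occur in other genes, so the split of fragments among its copies is uncertain.

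SAUR8 went from 49 to 21 fragments (ratio 0.428, interval 0.244 to 0.728). SAUR14, studied with SAUR50 in cotyledon opening, went from 1 to 9 fragments (ratio 8.99, interval 1.25 to 394) and SAUR35 from 11 to 21 (ratio 1.91, interval 0.879 to 4.38). SAUR26, of the heat-responsive group SAUR26 to SAUR28, had 0 fragments in the controls and 1 in each Al sample.

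**Figure D4:**
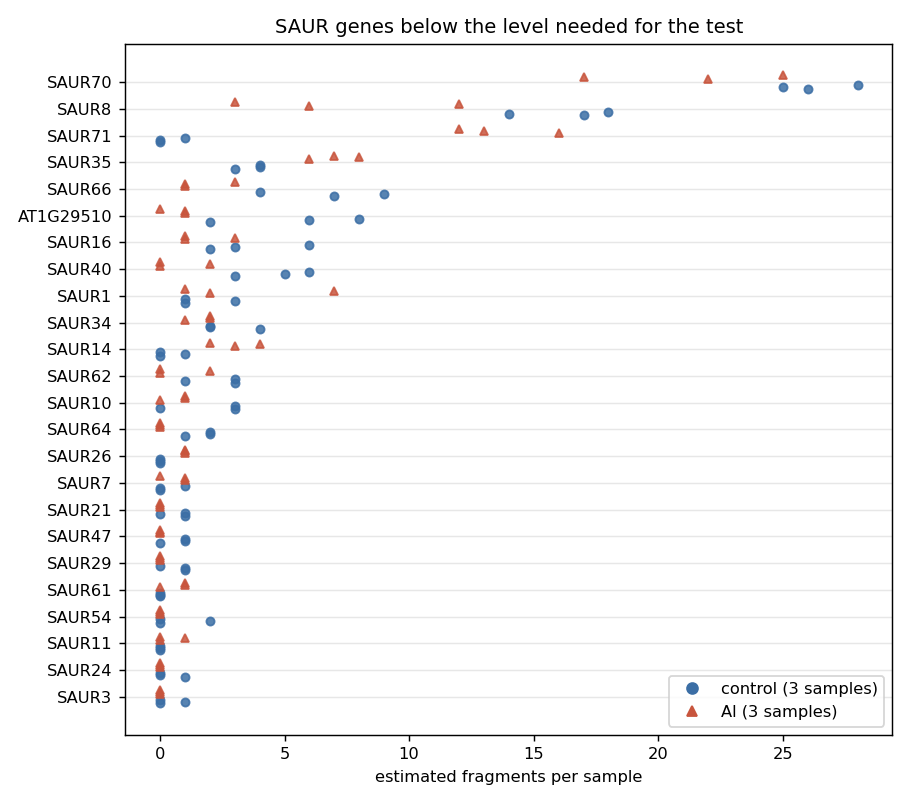
Estimated fragments per sample in the 3 controls (blue circles) and 3 Al samples (red triangles) for the 24 SAUR genes that were above 0 somewhere but below the level needed for the test. SAUR71 lies at 0 or 1 fragment in the controls and at 12 to 16 after Al treatment, while SAUR66, AT1G29510 and SAUR40 lie lower after Al treatment.

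SAUR loci outside the list moved in both directions as well. Of 18 such loci 13 had a row and 8 were tested, of which 3 rose, 4 fell and 1, SAUR74, was not called (37.5% higher and 50% lower, beside 21.3% and 38.5% of all genes). SAUR30 had 40.9, 39.3 and 37 FPKM in the controls and 177, 192 and 189 after Al treatment, 4.76-fold higher in means with a log2 fold change of 2.22 (SE 0.064, limma adjusted p = 1.34e-08). SAUR76, one of a group with SAUR77 and SAUR78 tied to ethylene responses, had 9.02, 12.8 and 12.3 FPKM against 3.65, 4.56 and 4.65, a log2 fold change of -1.22 (SE 0.14, limma adjusted p = 7.75e-05). SAUR58 (1.45) and SAUR78 (0.71) were also called higher on the log2 scale, and SAUR77 (-0.88), SAUR45 (-0.84) and SAUR49 (-0.61) lower. SAUR58 passed the filter only through the Al samples. Over listed and other loci together, 28 of 78 SAUR loci were tested, 6 rose and 13 fell, read against the same shares of all genes.

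Genes of the protein groups on which the best studied SAUR proteins act were also measured. Of the 9 clade D phosphatase genes, 5 rose (55.6%) and 3 fell (33.3%), beside 21.3% and 38.5% of all genes. With a replicate block 4 of them were called higher and 2 lower. APD5 rose from 46.8, 50.2 and 44.9 FPKM to 89.8, 85 and 81 (log2 fold change 0.84, limma adjusted p = 9.95e-06), and APD7 fell from 3.49, 4.51 and 4.55 to 1.28, 1.28 and 1.04 (-1.23, adjusted p = 2.86e-05). Of the 8 tested plasma membrane proton ATPase genes, 1 rose and 5 fell (62.5%, beside 38.5% of all genes called lower). The riser was AHA7 (log2 fold change 1.18, limma adjusted p = 0.000142), and the largest fall was that of AHA11 (-0.75, adjusted p = 0.000136). AHA2, which had the highest FPKM of the list, was not called (log2 fold change 0.15, limma adjusted p = 0.324). The summed FPKM of the proton ATPase genes overlapped between the groups, at 612 to 662 in the controls and 528 to 708 after Al treatment. With a replicate block and a length correction 3 proton ATPase genes were called lower.

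Upstream of the family, 5 of the 6 genes of the TIR1/AFB auxin receptors fell and 0 rose. AFB1, a receptor that is abundant in roots and acts in fast auxin responses, went from 23.8, 22.3 and 26.5 FPKM to 9.34, 9.54 and 8.56. The groups of AFB1 were far apart, with a log2 fold change of -1.31 (SE 0.085, limma adjusted p = 2.20e-06). Of the 5 activating auxin response factors, which switch on auxin target genes, 3 fell and 0 rose, led by ARF8 (log2 fold change -0.72, limma adjusted p = 7.92e-05). Against 38.5% of all genes called lower, 83.3% of the receptor genes and 60% of the response factor genes were called lower, in lists of 6 and 5. With a replicate block 3 receptor genes were called lower under either a length or a GC correction.

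Markers of root zones were lower after Al treatment. All 4 meristem markers and all 4 root hair zone markers were called lower, beside 38.5% of all genes. Of the 9 markers of root cells as a whole, 8 were tested and 5 were called lower, while PYK10, SCR and SHR were not called. Of those called lower, PLT1, RHD6 and COBL9 also stand in a zone list, so the lists are not separate. The summed FPKM of the meristem markers went from between 24.8 and 28.7 to between 10.2 and 13.1. That of the root hair zone markers went from between 39.7 and 48.3 to between 18.3 and 22.3, with no zone marker at 0. Their part in the changes of the SAUR genes was not tested.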

How the data were processed

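RNA-seq libraries of 3 Al and 3 control samples were grouped by their labels. The authors deposited FPKM values for 24379 genes, with replicates kept apart. The aligner, counting tool and annotation are not given in the sources used here. The authors' deposited log2 ratio, p-value and q-value columns compare Al with control and were not used, nor were 6 further per-sample columns that repeat the values. Gene starts and ends equal TAIR10.1 for 23857 of 24174 matched genes, and all 60 members matched RefSeq.

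The 18463 genes that reached an FPKM of 1 in 3 or more samples were fitted on log2(FPKM + 1) with limma 3.58.1 in R 4.3.3, using its mean-variance trend, and called at a Benjamini-Hochberg adjusted p under 0.05. The fit was first tested on simulated data. Fragments came from the spacing of low FPKM values, of which 85.8% to 88.0% lay within 0.15 of a whole number (30% by chance), with a length offset of 34 bases. Ratios of fragments carry exact 95% intervals. Motifs were counted on both strands, each separately.

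The members and lists were chosen with earlier results of these data known. Values per sample were given for members called with an absolute log2 fold change of at least 0.58, the 6 with the highest control mean and the best-known members. Others were named where their values bore on a group or where a left-out library changed the call, chosen after their values were seen. For other lists the called genes with the largest rise and fall were named with values, and for other SAUR loci all called genes. AHA2 was added for its high FPKM, after its values were seen. Alternatives changed the pseudocount, filter, scaling, trend, threshold, replicate block and samples.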

Additional observations from a re-analysis of the deposited data

How the results depend on the processing

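Of the 12 called SAUR genes, 6 (SAUR4, SAUR32, SAUR36, SAUR37, SAUR55 and SAUR72) stayed called in the same direction in all 16 refits. SAUR9, SAUR38 and SAUR51 stayed called in 15 and were not fitted when an FPKM of 1 was asked of every sample. SAUR9 and SAUR38 passed the filter through 1 group only, so their groups had to be apart in the deposited values. SAUR50, SAUR60 and SAUR69 lost calls. Leaving out 1 library gave 3 members higher each time and 6 to 9 lower. With no filter 7 members were higher and 12 lower, beside 4192 higher and 7231 lower of 23812 genes. SAUR71, SAUR14, SAUR35 and SAUR26 and 5 low members entered, and SAUR50 and SAUR60 lost their calls. Some that entered lie at the floor: over the 3 controls and 3 Al samples SAUR26 had 0 and 3 fragments, and SAUR64 had 5 and 0. At a log2 fold change of at least 1, 2 members were called lower, 1190 genes were higher and 531 lower over the whole table, and 3 genes of the other lists were higher and 3 lower.

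The replicate numbers gave no sign of pairing: deviations of same-numbered samples correlated at -0.25, -0.04 and -0.22. With 3 samples per group such values cannot exclude it. A replicate block gave 3 members higher and 8 lower, with SAUR69 no longer called (limma adjusted p = 0.0559). Over all 18463 genes it gave 3648 higher and 6319 lower. With a length correction added, 13 members were lower, SAUR5, SAUR31, SAUR33 and SAUR52 included, beside 5966 of 18463 genes. The median transcript length was 937 bases in the tested members and 1714 in all genes tested. With a GC correction in its place, 9 members were lower, beside 6155 of 18386 genes.

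Direction changed only in genes without a call among those followed. SAUR6 was at 0.045 under median-ratio scaling and between -0.18 and 0.10 without single libraries. SAUR59 was at -0.0017 with the block and length correction and at -0.053 with the block and GC correction. SAUR74 was at -0.20 and -0.064 under these corrections, at -0.047 under TPM scaling, and between -0.031 and 0.060 without single libraries. The cause was not tested. Median-ratio scaling moved the median of all genes from -0.13 to 0, TPM scaling to -0.20. Depth limits most members under the filter, 17 of which had no more than 3 fragments in any sample.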
